A study of Mus musculus with 6 samples.

Results

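Fc gamma receptors are the cell surface proteins through which immune cells recognise immunoglobulin G bound to a target. The mouse genes taken here were the activating receptors Fcgr1, Fcgr3 and Fcgr4, the inhibitory receptor Fcgr2b, the shared signalling chain Fcer1g and the neonatal receptor Fcgrt, which makes 6 genes in all. The genes were chosen by symbol, and the probe set of a gene was chosen on its measured mean over the 6 arrays, although each gene found had 1 probe set, so that this choice had no effect. A probe set with 1 gene symbol was found for 5 of the 6 genes, and the same 5 passed the filter on low signal, out of 19938 genes with such a probe set and 11940 genes tested. Fcgrt was not analysed here.

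RNA from bone marrow was measured on 6 single-colour Affymetrix arrays, 3 of wild type mice and 3 of mice with type 2 diabetes. The labels give the genotypes as BKS.Cg-Dock7m +/+ Leprdb/JNju for wild type and BKS.Cg-Dock7m -/- Leprdb/JNju for diabetic, so that both names carry the Dock7m coat colour marker and db, a variant of Lepr, the receptor of the satiety hormone leptin. The signs follow Dock7m in both names, and which allele they refer to is not explained there. All mice were males of 10 weeks, the cells were flushed from the shafts of femurs and tibiae, and no further treatment was given. No label says if an array held 1 mouse or several, so the p-values rest on array-to-array spread, which may be technical.

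Immunoglobulin G that coats a microbe or a cell draws Fc gamma receptors together on macrophages, monocytes, neutrophils and natural killer cells. The activating receptors have no signalling motif of their own in mouse and pair with Fcer1g, the gamma chain, whose immunoreceptor tyrosine-based activation motif recruits the kinase Syk and starts phagocytosis and cytokine release. Fcgr2b carries an inhibitory motif that recruits the lipid phosphatase encoded by Inpp5d, and Fcgr1, the high-affinity receptor of monocytes and macrophages, is a classical target of interferon gamma.

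The 250 bases before the start sites of Fcgr1, Fcgr4 and Fcgr2b are shown because the first held a match to a gamma-activated site, the sequence bound by STAT factors, the second a match to an interferon-stimulated response element, and the third neither. The sequences are from RefSeq on GRCm38.p6, written 5′ to 3′ in the direction of each gene, and all 6 genes had an entry. Capitals mark matches to TTCNNNGAA, to GAAANNGAAA, or to GAGGAA, a core sequence bound by the myeloid factor PU.1, on either strand. The Fcgr1 window is chr3:96293970-96294219 on the minus strand, the Fcgr4 window is chr1:171018676-171018925 on the plus strand, and the Fcgr2b window is chr1:170976072-170976321 on the minus strand.
Fcgr1: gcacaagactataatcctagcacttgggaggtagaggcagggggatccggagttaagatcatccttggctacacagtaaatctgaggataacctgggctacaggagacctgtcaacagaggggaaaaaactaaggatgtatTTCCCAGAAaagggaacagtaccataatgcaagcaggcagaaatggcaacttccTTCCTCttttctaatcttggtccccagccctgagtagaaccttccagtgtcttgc
Fcgr4: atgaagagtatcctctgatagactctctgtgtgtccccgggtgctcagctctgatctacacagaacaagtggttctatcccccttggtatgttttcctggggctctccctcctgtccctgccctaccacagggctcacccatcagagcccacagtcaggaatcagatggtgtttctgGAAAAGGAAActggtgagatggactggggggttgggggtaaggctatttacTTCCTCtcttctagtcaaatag
Fcgr2b: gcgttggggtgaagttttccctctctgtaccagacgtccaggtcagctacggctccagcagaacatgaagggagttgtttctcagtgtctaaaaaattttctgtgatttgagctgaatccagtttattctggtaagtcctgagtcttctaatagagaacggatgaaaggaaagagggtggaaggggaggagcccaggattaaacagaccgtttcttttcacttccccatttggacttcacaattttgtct
The TTCNNNGAA match of Fcgr1 read TTCCCAGAA and lay 109 to 101 bases before the start. Among the 6 genes it was found in 1, and in 7.02% of 32851 windows of the same length. The GAAANNGAAA match of Fcgr4 read GAAAAGGAAA, lay 73 to 64 bases before the start and was again found in 1 of the 6 genes, against 2.98% of all windows. GAGGAA was found on the opposite strand, reading TTCCTC, in Fcgr1, Fcgr4 and Fcgr3, 3 of the 6 genes, and in 23.3% of all windows. The motifs were chosen with the sequences in view, a match describes letters only, and binding was not measured.

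Across all 11940 genes, 49 passed an adjusted p of 0.05 in limma, a linear model with moderated variances, and 39 of the 49 were lower in diabetic marrow. An unadjusted p under 0.05 was reached by 7.16% of all genes in either direction, the share against which such counts in the gene lists are to be read. For counts past the threshold that share is 0.410%, so a count of 0 in a short list says little about its genes. The median of the log2 signal over all probe sets lay between 7.67 and 7.73 on the 6 arrays. Lepr had low signal in both groups, at 5.68 to 5.95 in wild type and 5.65 to 5.72 in diabetic arrays, below the filter at 7.52, and since the db variant alters splicing of the long receptor form, a probe set of the whole gene does not check the labels. Mean log2 signals of marker lists for the main marrow lineages were taken over the markers that passed the filter. A list mean above the filter was therefore largely set in advance. The means were 12.66 to 12.92 for neutrophils, 11.93 to 12.45 for erythroid cells and 9.87 to 10.99 for B cells. Both ends of the erythroid and B cell ranges were wild type arrays. For B cells these were replicate 3 and replicate 1, and the diabetic arrays spanned 10.25 to 10.48.

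Fcgr1 was the only member that passed the test, and it was lower in diabetic marrow. Its log2 signal was 8.02, 8.18 and 8.20 in wild type and 7.50, 7.43 and 7.44 in diabetic marrow. Every diabetic array lay below every wild type array, and the gap between the groups was wider than the spread within either. The mean fell from 8.13 ± 0.10 (SD, n = 3) to 7.46 ± 0.04 (SD, n = 3), a log2 change of -0.68 ± 0.07 (SE) with a 95% interval of -0.84 to -0.52, or 1.60-fold lower, with an adjusted p of 0.0137 in limma. Passing in the lower direction was the case for 1 of the 5 members, against 0.327% of all genes tested, and passing in either direction for 0.410%. In whole marrow, fewer cells that carry a transcript and less transcript per cell cannot be told apart.

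The diabetic mean of Fcgr1 lay below the filter of 7.52, so the gene was tested only through its wild type arrays. With all genes and no filter its adjusted p in limma was 0.0121. Leaving out single arrays ended the call in 4 of 6 cases, with adjusted p values in limma of 0.0816 without wild type replicate 2, 0.0779 without diabetic replicate 1, 0.0999 without diabetic replicate 2 and 0.0731 without diabetic replicate 3. The log2 change in these 6 fits stayed between -0.73 and -0.64.

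**Figure D1:**
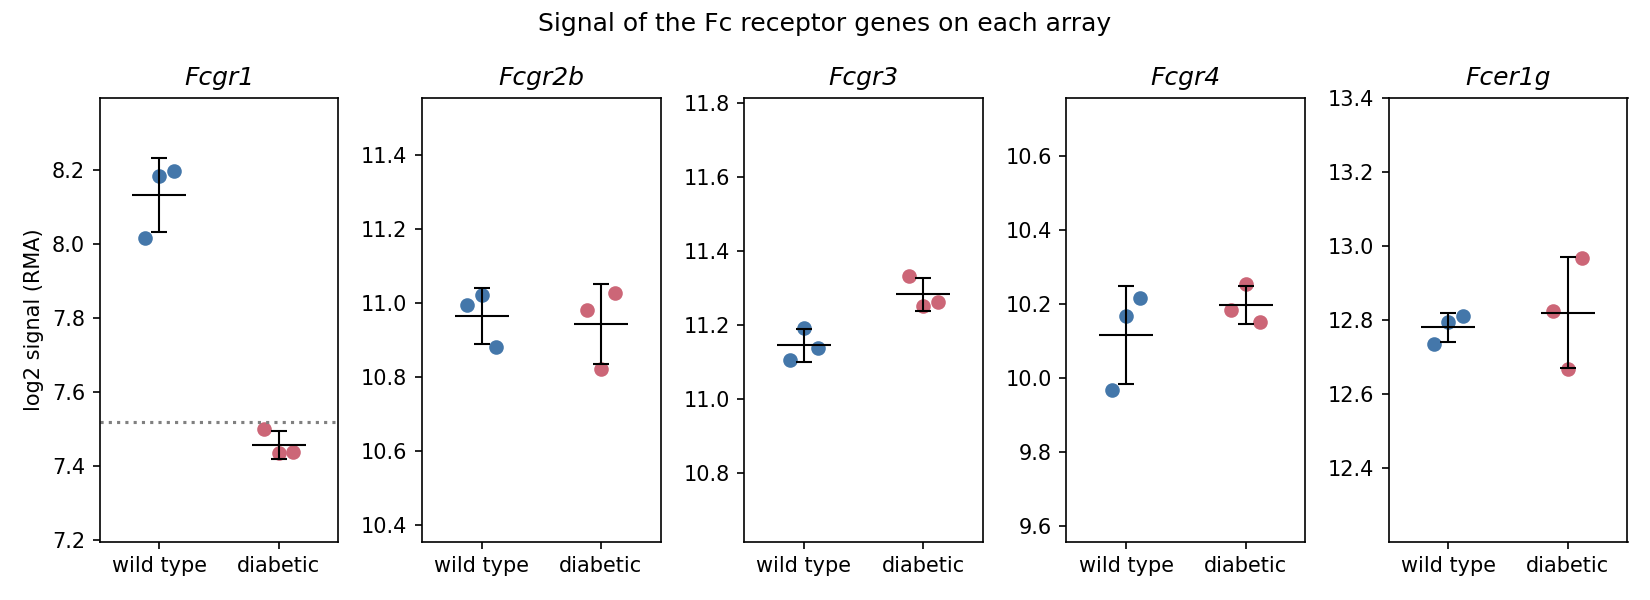
Log2 signal of the 5 measured genes on each array, with wild type arrays in blue, diabetic arrays in red, the mean as a horizontal line and the SD of 3 arrays as the error bar. Each vertical axis spans the same number of log2 units and the dotted line for Fcgr1 is the signal filter; Fcgr1 is 8.02 to 8.20 in wild type and 7.43 to 7.50 in diabetic arrays.

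Fcgr3, the low-affinity activating receptor of most myeloid cells and natural killer cells, had slightly higher values in diabetic marrow and did not pass. Its log2 signal was 11.11, 11.19 and 11.14 in wild type and 11.33, 11.25 and 11.26 in diabetic marrow. The groups did not overlap, although the nearest arrays, wild type replicate 2 and diabetic replicate 2, lay close together. The log2 difference was 0.14 ± 0.06 (SE), 1.10-fold, with a 95% interval of 0.00 to 0.27. Its adjusted p in limma was 0.690, and an unadjusted p under 0.05 in this direction was reached by 3.99% of all genes. Separate groups, found for Fcgr1 and Fcgr3, 2 of the 5 members, occurred in 12.4% of all genes.

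Fcgr4, the activating receptor of monocytes and neutrophils next to Fcgr3 on chromosome 1, showed no separation. Its log2 signal was 9.97, 10.17 and 10.22 in wild type and 10.19, 10.25 and 10.15 in diabetic marrow. Wild type replicate 1 was the lowest of the 6, and the other wild type arrays lay among the diabetic ones. The log2 difference was 0.08 ± 0.08 (SE), with a 95% interval of -0.10 to 0.26 and an adjusted p of 0.946 in limma.

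Fcer1g, the gamma chain that the activating receptors need for surface expression and signalling, had a log2 signal of 12.74, 12.80 and 12.81 in wild type and 12.82, 12.67 and 12.97 in diabetic marrow. The diabetic arrays spread on both sides of the wild type arrays, with an SD of 0.15 against 0.04. The log2 difference was 0.04 ± 0.08 (SE), with a 95% interval of -0.15 to 0.23 and an adjusted p of 0.984 in limma.

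Fcgr2b, the inhibitory receptor of B cells and myeloid cells, had a log2 signal of 10.995, 11.02 and 10.88 in wild type and 10.98, 10.82 and 11.03 in diabetic marrow. The groups overlapped over nearly their whole range. The log2 difference was -0.02 ± 0.08 (SE), with a 95% interval of -0.20 to 0.15 and an adjusted p of 0.993 in limma. The intervals of Fcgr2b, Fcgr4 and Fcer1g all leave room for small differences of either sign, and none of them reaches the change of Fcgr1. Fcgr2b, Fcgr3 and Fcgr4 are similar in the sequence of their extracellular parts, and whether their probe sets share signal was not tested.

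**Figure D2:**
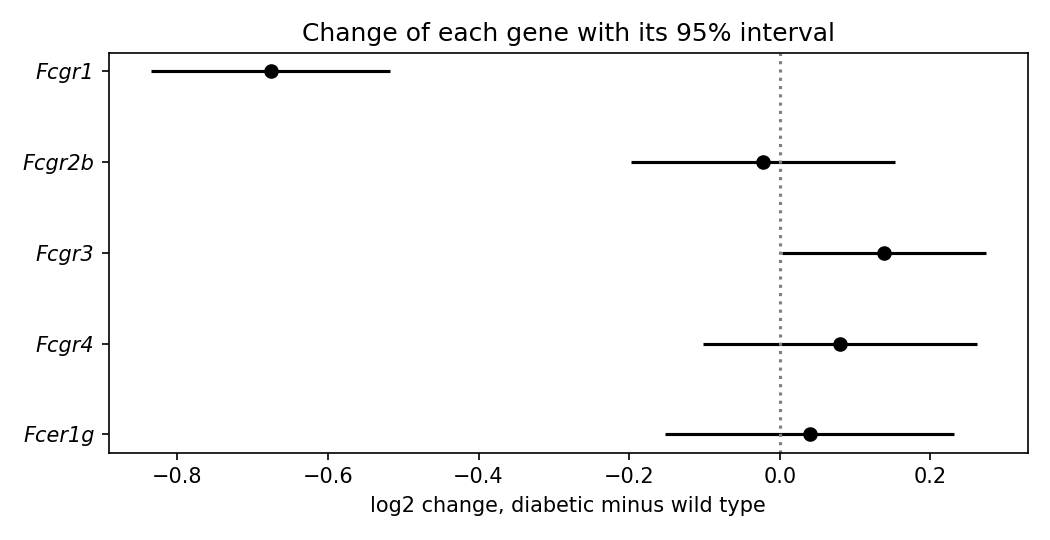
Log2 change of each measured gene, diabetic minus wild type, as a point with its 95% interval from the limma fit, against a dotted line at no change. The interval of Fcgr1 runs from -0.84 to -0.52 and lies apart from those of the other 4 genes.

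The balance of activating and inhibitory receptors was compared within each array as the log2 difference of a gene from Fcgr2b, in which only the change between groups has a meaning. For Fcgr1 it was -2.98, -2.84 and -2.68 in wild type and -3.48, -3.39 and -3.59 in diabetic marrow. The groups were apart, by -0.65 on the log2 scale, with a two-sided exact permutation p of 0.1, the smallest that 3 against 3 arrays can give, and 0.4 after Benjamini-Hochberg adjustment over the 4 pairs. The change was 0.16 for Fcgr3 (exact permutation p = 0.2, adjusted 0.4), 0.10 for Fcgr4 (exact permutation p = 0.5, adjusted 0.5) and 0.06 for Fcer1g (exact permutation p = 0.4, adjusted 0.5), with overlapping groups in each. At this number of arrays an unequal change of 2 receptors could not pass 0.05 in this test.

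The genes around the receptors were read for shifts of a whole region. Fcgr1 stands alone on chromosome 3, and of the 5 protein-coding genes on each side of it 4 were tested, 0 passed and 0 had an unadjusted p under 0.05 in limma, with log2 changes from -0.10 to 0.25. Txnip, which encodes a glucose-responsive inhibitor of thioredoxin, had the upper value. Fcgr2b, Fcgr4 and Fcgr3 are consecutive on chromosome 1, with Fcer1g further along, and of 17 other protein-coding genes around these 4 members 10 were tested, 0 passed and 0 had an unadjusted p under 0.05, with log2 changes from -0.42 for Fcrla to 0.08. No measured neighbour on either chromosome had a called change beside that of Fcgr1. Since 0.410% of all genes were called, a count of 0 among so few neighbours says little about the region.

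The genes with an array profile most like that of Fcgr1 were found over the 11940 genes tested. Likeness was the root mean square difference between profiles over the 6 arrays after each was centred on its own mean, in log2 units, and only Fcgr1 among the members spanned the 0.5 log2 units set for this reading. The nearest genes were Ifi35 at 0.05, Gbp7, a guanylate-binding protein gene, at 0.05, Parp9, an ADP-ribosyltransferase gene, at 0.06, Rnf213 at 0.07 and Cmpk2, a mitochondrial nucleotide kinase gene, at 0.08. Their log2 changes were -0.64, -0.67, -0.56, -0.73 and -0.56, with adjusted p values in limma of 0.0277, 0.0220, 0.0220, 0.0143 and 0.0280. All 6 genes were higher on each of the 3 wild type arrays than on any diabetic array, and all had wild type replicate 1 as the lowest wild type array. The genes were chosen for likeness to Fcgr1, so their changes, adjusted p values and separate groups were largely set by that choice. A match over 6 arrays that differ between groups is a description only.

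**Figure D3:**
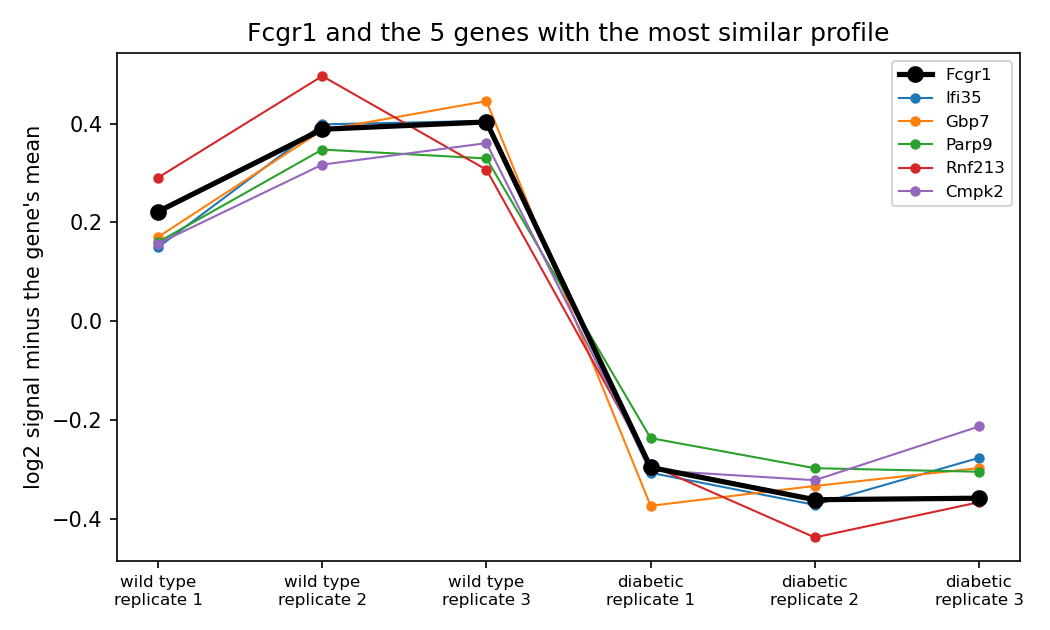
Log2 signal of Fcgr1 (thick black line) and of the 5 genes with the smallest root mean square difference from it, each centred on its own mean over the 6 arrays. All 6 genes lie above 0 on the wild type arrays and below 0 on the diabetic arrays, which the choice by likeness largely set. The lines join arrays only to guide the eye.

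Interferon gamma targets other than Fcgr1 were lower in part. Of 14 tested, 4 were past the threshold, all lower, and 10 had an unadjusted p under 0.05 in limma, against 7.16% of all genes. Lower values were found in 11, with a median log2 change of -0.27 over the list. Over all genes tested 47.6% had lower values, and the median was 0.00. Those that passed in limma were Irgm1, a GTPase of cell-autonomous defence, at -0.90, Cxcl9 and Cxcl10, chemokines that attract T cells, at -1.06 and -0.80, and Irf9, a subunit of the interferon transcription complex, at -0.78. Ciita, Cd274 and Irf8, also targets of interferon gamma, were the 3 of the list without lower values, with changes of 0.09, 0.01 and 0.00. The list mean was 9.59 to 9.73 on the wild type and 9.22 to 9.30 on the diabetic arrays, so the arrays separated as they did for Fcgr1. The count was 2 without wild type replicate 2, 1 without diabetic replicate 1, 0 without diabetic replicate 2 and 2 without diabetic replicate 3.

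Type I interferon targets had lower values in all 19 of 19 genes tested, with a median log2 change of -1.14, and 13 passed in limma. These were Ifit3, Rtp4, Ifi27l2a, Oas2, Usp18, Oasl2, Irf7, Xaf1, Oas1a, Zbp1, Oasl1, Dhx58 and Cmpk2, with log2 changes from -1.78 for Ifit3 to -0.56 for Cmpk2. They encode antiviral effectors and sensors, the interferon regulator Irf7, and Usp18, a feedback inhibitor of the receptor. The list mean was 9.66 to 10.11 on the wild type and 8.75 to 8.90 on the diabetic arrays, and the change of Fcgr1 was smaller than the median of this list. The count was 6 without wild type replicate 2, 3 without diabetic replicate 1, 0 without diabetic replicate 2 and 3 without diabetic replicate 3. Whether this list and that of interferon gamma targets tell the interferons apart was not tested.

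Receptors and cytokines that set the level of Fc receptors were measured beside them. Of 15 listed genes 12 passed the filter and were tested, and the cytokines among these were Tnf and Tgfb1. Listed genes below the filter were not tested. Of the 12 tested genes 0 passed in limma, with a median of 0.04 and 1 unadjusted p under 0.05. Ifngr1, a subunit of the interferon gamma receptor, was 11.21, 11.25 and 11.18 in wild type and 11.51, 11.45 and 11.29 in diabetic marrow, a log2 difference of 0.21 ± 0.07 (SE) with an adjusted p of 0.580 in limma. Its groups did not overlap, with the diabetic arrays higher. Tgfbr2 and Tnf differed by 0.13 and 0.07.

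**Figure D4:**
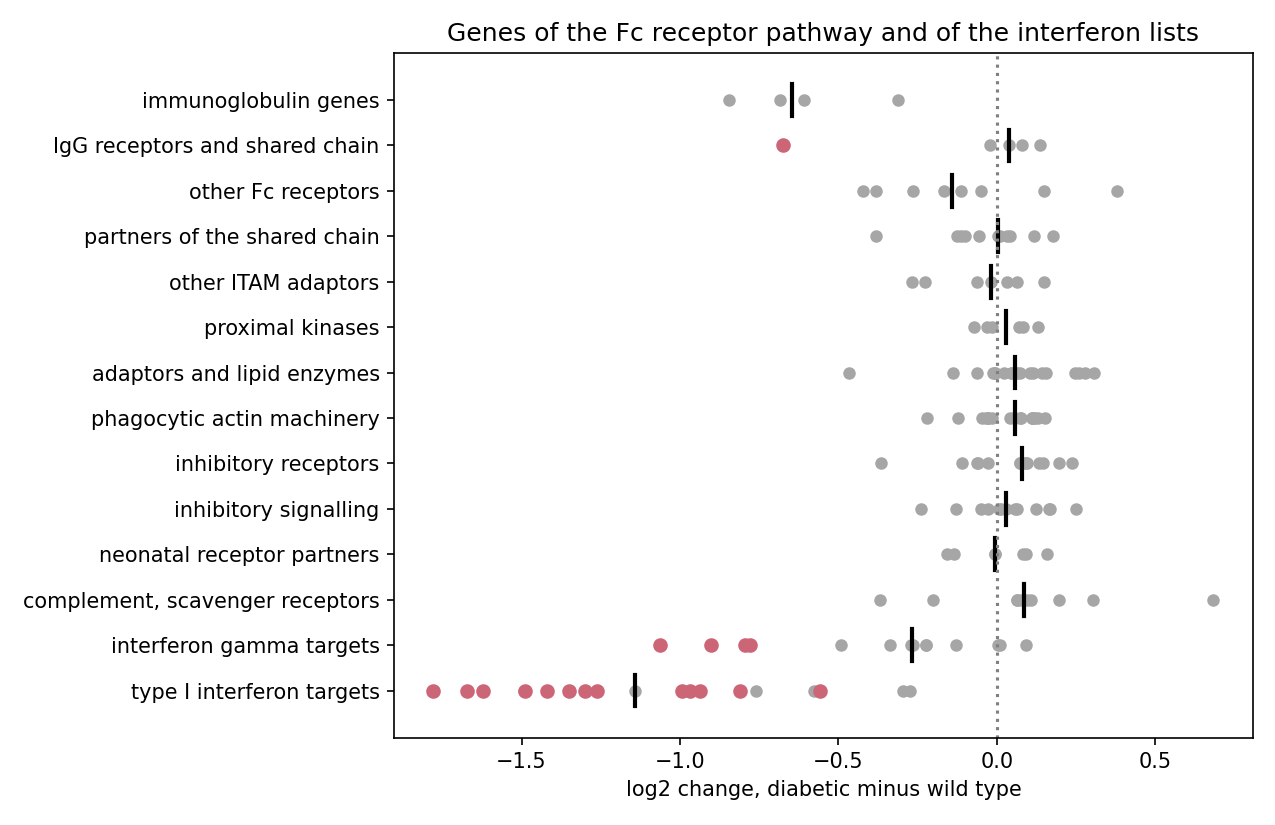
Log2 change, diabetic minus wild type, of every tested gene in the lists of the Fc receptor pathway and of interferon targets, 1 point a gene, red where the adjusted p was under 0.05, with a black bar at the list's median. Red points occur for Fcgr1 and for the interferon lists, which hold 4 and 13 of them.

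The ligand side was read through immunoglobulin genes, which form families of similar sequence, so the gene a probe set reports is uncertain. Of 11 listed genes 4 had a probe set and were tested, 0 passed in limma, 3 had an unadjusted p under 0.05, and all 4 had lower values, with a median log2 change of -0.65. Without wild type replicate 1 the count past the threshold was 1, Igha, which was lower. Only Ighg3 among the 4 encodes a chain of immunoglobulin G, the ligand of Fc gamma receptors, so the list median does not measure that ligand. Ighg3 was 8.25, 8.78 and 8.84 in wild type and 7.88, 8.37 and 7.79 in diabetic marrow. Its groups overlapped, since diabetic replicate 2 lay above wild type replicate 1. Igha, the heavy chain of immunoglobulin A, differed by -0.85 ± 0.15 (SE) and Ighm, that of immunoglobulin M, by -0.31 ± 0.08 (SE), with adjusted p values in limma of 0.103 and 0.361 and separate groups. Plasma cell markers, the source of antibody, had a list mean of 9.68 to 9.99 in wild type and 9.40 to 9.44 in diabetic arrays, with lower values in 7 of 7 tested, 0 past the threshold in limma and 3 with an unadjusted p under 0.05. Igha and Jchain stand in both lists, and the part of the plasma cell markers in the immunoglobulin values was not tested.

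Other receptors for antibody did not pass either. Of 8 tested 0 passed in limma, 1 had an unadjusted p under 0.05, 6 had lower values and the median log2 change was -0.14, or -0.04 without wild type replicate 1. Trim21, the cytosolic antibody receptor and an interferon-induced gene, was 9.21, 9.30 and 9.13 in wild type and 9.02, 9.005 and 8.82 in diabetic marrow. Its diabetic arrays were all lower, with a log2 difference of -0.27 ± 0.08 (SE) and an adjusted p of 0.494 in limma. Fcer1a, the immunoglobulin E receptor of mast cells and basophils, differed by -0.38 ± 0.23 (SE) and Fcrla, a B cell Fc receptor-like gene, by -0.42 ± 0.28 (SE), with overlapping groups.

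The chain encoded by Fcer1g serves further receptors, and 11 of these were tested. In limma 0 passed and 0 had an unadjusted p under 0.05, with a median log2 change of 0.00. Ms4a2, a subunit of the immunoglobulin E receptor, differed by -0.11 ± 0.08 (SE), and Lilra6 by 0.12 ± 0.11 (SE). Of 7 other adaptors with activation motifs or related function 0 passed, 1 had an unadjusted p under 0.05, and the median was -0.02. Hcst differed by 0.15 ± 0.06 (SE), Tyrobp, a myeloid adaptor with the same kind of motif as the gamma chain, by 0.03 ± 0.07 (SE), and the B cell receptor chains Cd79a and Cd79b by -0.23 ± 0.23 (SE) and -0.27 ± 0.21 (SE).

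Downstream of the chain, 6 proximal kinases, 21 adaptors and lipid enzymes and 18 genes of the phagocytic actin machinery were tested and 0 passed in limma in each group, with 0, 3 and 1 unadjusted p values under 0.05. Their median log2 changes were 0.03, 0.06 and 0.06. Syk, the kinase that binds the phosphorylated chain, differed by -0.07 ± 0.17 (SE), and Fgr, a Src family kinase of myeloid cells, by 0.13 ± 0.08 (SE). Vav3, an exchange factor that acts on the actin cytoskeleton, differed by 0.28 ± 0.06 (SE), Pld1, a phospholipase, by 0.26 ± 0.06 (SE) and Lat, a scaffold best known from T cells, by 0.31 ± 0.10 (SE), with separate groups and adjusted p values in limma of 0.260, 0.280 and 0.546. Among actin genes Vasp, Dnm2 and Arpc2 differed by 0.15, 0.12 and 0.11.

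The inhibitory arm beyond Fcgr2b had no called change, where 0.410% of all genes were called. Of 13 tested genes of inhibitory signalling 0 passed in limma, 2 had an unadjusted p under 0.05, and the median log2 change was 0.03; Inpp5d differed by -0.05 ± 0.08 (SE). Ptpn22, a phosphatase that restrains Src kinases, Pag1, a membrane adaptor of the kinase Csk, and Cbl, a ubiquitin ligase for activated receptors, differed by 0.17, 0.25 and 0.17. Of 14 other inhibitory receptors 0 passed, 0 had an unadjusted p under 0.05, and the median was 0.08. Sirpa, which binds CD47 on target cells and restrains phagocytosis, differed by 0.15 ± 0.07 (SE), Clec4a2 by 0.24 ± 0.10 (SE) and Clec12a by 0.13 ± 0.06 (SE).

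Partners of the neonatal receptor, which recycles immunoglobulin G away from lysosomes, were tested in 7 cases, of which 0 passed in limma and 0 had an unadjusted p under 0.05, with a median log2 change of -0.004. B2m, its light chain, differed by -0.16 ± 0.07 (SE) with lower values on all 3 diabetic arrays, Rab4a, an endosomal GTPase, by 0.16 ± 0.07 (SE), and Rab11b by -0.13 ± 0.08 (SE). Complement and scavenger receptors, which take up particles beside Fc receptors, were tested in 10 cases, of which 0 passed and 3 had an unadjusted p under 0.05, with a median of 0.09. Itgax, an integrin chain that binds complement, was 8.42, 8.54 and 8.42 in wild type and 8.11, 8.15 and 8.01 in diabetic marrow. C3ar1, the receptor for a complement fragment, was 8.37, 8.43 and 8.81 in wild type and 8.95, 9.22 and 9.49 in diabetic marrow. Both had separate groups and ran in opposite directions, with log2 differences of -0.37 ± 0.07 (SE) and 0.68 ± 0.16 (SE) and adjusted p values in limma of 0.103 and 0.262.

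Markers of macrophages, on which Fcgr1 is typically found, mostly had lower values on the arrays where it was lower. Of 15 tested macrophage markers 1 passed in limma, Mertk, a receptor for dying cells, at -0.47 ± 0.07 (SE), while 11 had an unadjusted p under 0.05, against 7.16% of all genes, and 13 had lower values, with a median log2 change of -0.34. Their list mean was 9.59 to 9.75 on the wild type and 9.39 to 9.47 on the diabetic arrays, without overlap. The call of Mertk was lost in every fit that left out 1 array. The 2 markers with higher values were Adgre1 and Cd163. Adgre1, a surface receptor widely used to mark macrophages, differed by 0.27 ± 0.14 (SE). Cd163, a haemoglobin scavenger receptor, differed by 0.34 ± 0.06 (SE), with separate groups and an adjusted p of 0.0660 in limma. Cd163 was 1 of the 11 with an unadjusted p under 0.05. The part of the macrophage markers in the lower signal of Fcgr1 was not tested.

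Monocyte markers ran the other way. Of 11 tested 0 passed in limma, 4 had an unadjusted p under 0.05 and 9 had higher values, with a median log2 change of 0.17, or 0.11 without wild type replicate 2, and a list mean of 10.14 to 10.37 on the wild type and 10.42 to 10.59 on the diabetic arrays. Vcan, a matrix proteoglycan gene, differed by 1.44 ± 0.22 (SE) and Fn1, the fibronectin gene, by 0.65 ± 0.13 (SE), with adjusted p values in limma of 0.0506 and 0.132. Both passed and were higher without wild type replicate 1. The receptor of the growth factor of these cells, Csf1r, differed by -0.01 ± 0.07 (SE). Neutrophil markers overlapped, at 12.66 to 12.77 against 12.70 to 12.92, with 1 of 15, Chil3, past the threshold and higher in limma, a call that was lost without wild type replicate 2, without diabetic replicate 1 and without diabetic replicate 3. Dendritic cell markers were 9.36 to 9.48 in wild type and 9.22 to 9.26 in diabetic arrays. In limma 0 of 13 passed and 7 had an unadjusted p under 0.05, with 9 lower and 4 higher values. Without wild type replicate 3, 1 of them, Ly6d, passed and was lower. The B cell markers Ebf1 and Rag1 also passed in that fit, at -0.86 and -0.89. With all arrays 0 of 12 B cell markers passed, with 9 lower and 3 higher values, a median of -0.22 and overlapping groups. The part of these lists in the values of Fcgr1 and Fcgr3 was not tested. Natural killer and T cell markers had a median of -0.02.

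**Figure D5:**
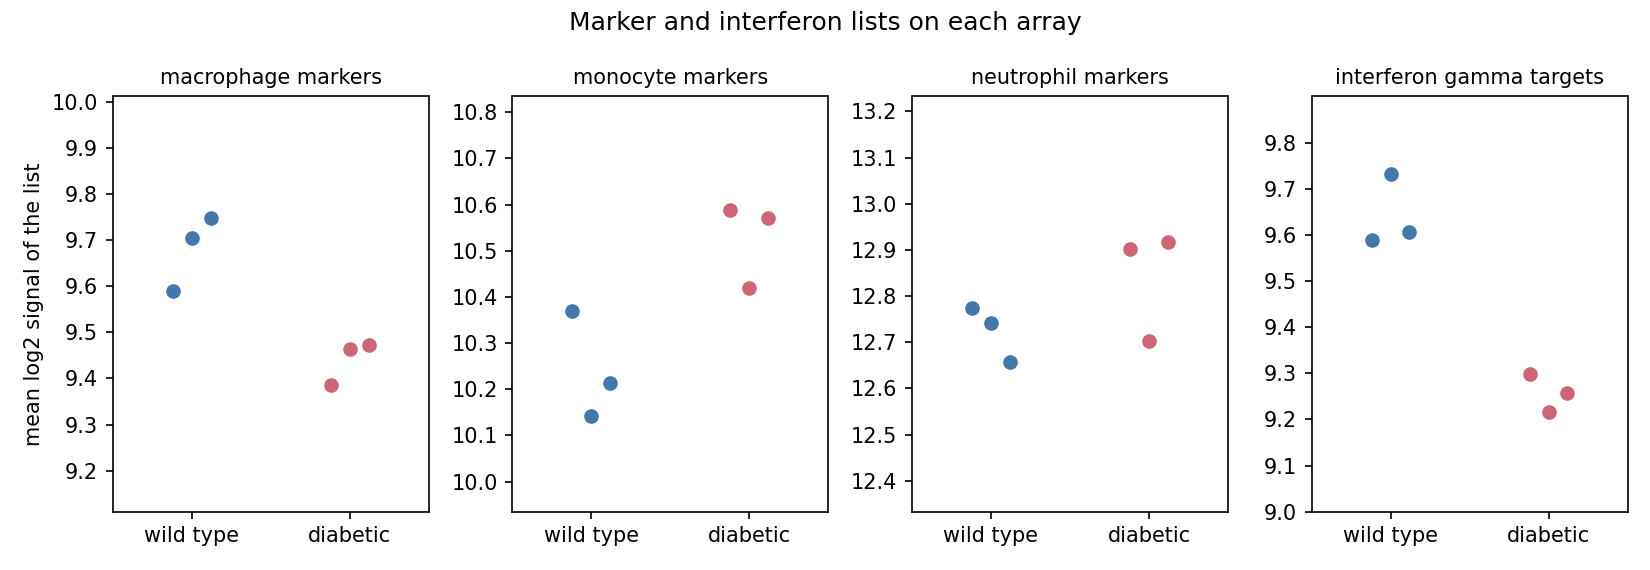
Mean log2 signal of the macrophage, monocyte, neutrophil and interferon gamma target lists on each array, with wild type arrays in blue and diabetic arrays in red. Macrophage markers and interferon gamma targets are lower and monocyte markers higher on all diabetic arrays, and neutrophil markers overlap.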

How the data were processed

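The authors deposited 1 log2 signal for each probe set and array. Per the submitters' processing notes, it was made with RMA in Affymetrix Expression Console. The software version and the genome build were not given in the sources used here. RMA equalises the distributions of the arrays, so a shift shared by most genes cannot be seen. Of 35556 probe sets, 21789 had 1 gene symbol in the platform annotation, 1621 several and 12146 none; 21698 of the single symbols matched RefSeq (GRCm38.p6) and 0 changed. Several probe sets were found for 999 genes, and the brightest by mean stood for each. Genes with a mean at or above 7.52, the 40th percentile of single-symbol probe sets, were tested.

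The groups were compared in R 4.3.3 with limma 3.58.1 (lmFit, eBayes; tables read with the R package data.table, version 1.17.8), with no covariate and Benjamini-Hochberg adjustment over all 11940 genes at 0.05; figures used matplotlib 3.10.9 in Python 3.11.15. Pairs of receptors were compared with exact permutation tests over arrays. The fit was tested on simulated data. The genes and lists were chosen with earlier results of these data known. Named were the members, every listed pathway gene past the threshold or otherwise up to 3 with the smallest p, and the 5 genes most like a member; others, such as Syk, Inpp5d, Tyrobp, Csf1r, Txnip, Ciita, Cd274, Irf8 and markers, were chosen after their values were seen. Alternatives were other filters, scalings, probe set means, variance settings, array weights, a replicate block and leaving out each array.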

Additional observations from a re-analysis of the deposited data

How the results depend on the processing

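The count of 49 genes was 1131 with array weights (572 higher, 559 lower), where limma's weights ran from 0.283 for wild type replicate 3 to 6.78 for wild type replicate 2 and their estimation ended with a convergence warning. It was 2 with the replicate number as a replicate block, and from 3 to 69 over the fits that left out single arrays. The labels state no pairing of the replicate numbers. The correlations of same-numbered deviations were 0.33, -0.04 and -0.05, and 2 of 6 arrays correlated best with their own number. These values are too few to exclude a pairing. The change of Fcgr1 kept its direction in all 14 alternatives that gave a value, from -0.73 to -0.64, with adjusted p values in limma of 0.000129 to 0.0999. Its call was lost under the replicate block (-0.68, adjusted p 0.0805 in limma) and in 4 of 6 leave-one-out fits, which spanned -0.73 to -0.64. At the 60th percentile filter it was not tested. Small differences changed sign, for Fcgr2b between -0.0651 and 0.0389 (0.006 without wild type replicate 2, and 0.0389 when diabetic replicate 2 was dropped) and for Fcer1g between -0.0348 and 0.116 (-0.0348 when diabetic replicate 3 was dropped). The change of Fcgr3 ranged from 0.11 to 0.16 and that of Fcgr4 from 0.005 to 0.13, neither passing. A filter set over all named probe sets, chosen after seeing the data, gave 52 genes. Of 390 list counts under alternatives 56 moved by over 1.5 times, and of 390 list medians 6 moved by more than the spread between replicates. With array weights the counts past the threshold were 4 of 4 for immunoglobulin genes and 4 of 8 for other Fc receptors. They were 6 for monocyte, 8 for dendritic cell and 12 for macrophage markers, beside 1131 of all 11940 genes. Over all alternatives the highest count was 4 for adaptors and lipid enzymes, for actin genes and for other inhibitory receptors. For B cell markers it was 7. Medians under 0.05 in size crossed 0 in some lists over the fits that left out single arrays. The larger median of megakaryocyte markers, -0.08 in the main fit, also crossed 0 and reached 0.17. The number of arrays limits the precision.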
